A study of Mus musculus with 18 samples.

Results

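NMDA receptor subunit genes were followed in cultured mouse cortical neurons that lacked or carried Fmr1, which encodes FMRP, an RNA-binding repressor of translation, with or without the BET bromodomain inhibitor JQ1. The members are the 7 rows of the gene count table named Grin1, Grin2a, Grin2b, Grin2c, Grin2d, Grin3a and Grin3b, out of 37310 gene rows. Of these, 6 had enough counts to be tested, as had 15433 genes in all, and Grin3b did not. The 4 groups, each of 3 libraries, were Fmr1 KO neurons in JQ1, WT neurons in JQ1, Fmr1 KO neurons in DMSO and WT neurons in DMSO. Treatment began on day 7 in culture and lasted 24 h, with DMSO as the vehicle. JQ1 occupies the acetyl-lysine pockets of BET proteins such as BRD2, which help RNA polymerase II to elongate transcripts. The sources used here do not give the mouse strain, the age at dissection or the dose of JQ1. The labels number the libraries of a group but tie them to no culture or animal. The spread behind each p-value is therefore that between libraries and may be technical. Both KO replicate 3 libraries, however, stood apart from the others in sex-linked genes, with the values given below.

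NMDA receptors are glutamate-gated channels that pass calcium only when glutamate and a co-agonist, glycine or D-serine, are bound and depolarisation has lifted a magnesium block. Each receptor is a tetramer that needs GluN1, the product of Grin1, and takes its other subunits from the GluN2 proteins (Grin2a to Grin2d), which bind glutamate, or the GluN3 proteins (Grin3a and Grin3b), which bind glycine. In the developing cortex GluN2B and GluN2D are early subunits, GluN2A comes later, GluN2C is mainly cerebellar, and GluN3A, which lowers calcium entry, is abundant in immature neurons and declines with maturation.

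The subunit genes share an ancestry, so it matters whether reads can be assigned to 1 of them. The conserved stretch that codes for part of the third membrane segment, which lines the channel gate, is shown for 6 members because it is among the parts most alike in the family. Its 24 bases are read 5′ to 3′ along the coding strand of the GENCODE M21 transcripts (GRCm38), and capitals mark bases that differ from Grin1.
Grin1: tcctacactgccaacctggcagcc
Grin2a: AGTtacacAgccaacctggcTgcc
Grin2c: AGctacacGgccaaTctggcagcc
Grin2d: AGctaTacAgccaaTctggcTgcc
Grin3a: AcAtacacAgcGaacTtggcTgcT
Grin3b: AGTtacacAgccaacctggcagcT
The others shown differed from Grin1 at 4 (Grin2c) to 7 (Grin3a) of these 24 positions. No stretch of 75 bases, the read length, was shared between any 2 members. Outside the family, 2001 of the 17997 such stretches of Grin2a recur on the same strand in the gene model Gm7328. On the opposite strand, 581 of the 10254 stretches of Grin1 lie in its antisense gene. Also on the opposite strand, 626 of 3294 stretches of Grin3b lie in Tmem259 and 425 of 6579 of Grin2d in Gm45441. Smaller shares were found for Grin2b (83 of 24836) and Grin2c (19 of 4963). The sources used here do not say whether counting used strand, so reads of these members and of the genes opposite them cannot be told apart there. The antisense gene of Grin1, listed as E130003G02Rik, held 6 to 72 counts per library, which is 0.214% to 0.753% of the Grin1 count. Counts of the other opposite genes are not given here.

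In the GRCm38 annotation the members lie on different chromosomes: Grin1 at chr2:25291181-25319187, Grin2a at chr16:9567898-9995560, Grin2b at chr6:135713233-136173511 and Grin2c at chr11:115249169-115267243. Grin2d lies at chr7:45831883-45878378, Grin3a at chr4:49661611-49845744 and Grin3b at chr10:79970715-79977190. All are on the minus strand except Grin3b. The genes differ widely in size, and the main transcript (that of the longest coding sequence) runs from 3283 bases for Grin3b and 4276 for Grin1 to 14634 for Grin2a and 24060 for Grin2b. Promoter sequence is shown for Grin1 and Grin2c, which moved in opposite directions under JQ1 relative to all genes (with spike-in scaling Grin1 was at -0.28 in WT, the direction of Grin2c). It is the 250 bases before the start of the gene, from RefSeq (GRCm38.p6), on the strand of the gene, 5′ to 3′. Capitals mark E-boxes (CACGTG) in Grin1 and GC boxes (GGGCGG, on either strand) in Grin2c.
Grin1, chr2:25319188-25319437, minus strand: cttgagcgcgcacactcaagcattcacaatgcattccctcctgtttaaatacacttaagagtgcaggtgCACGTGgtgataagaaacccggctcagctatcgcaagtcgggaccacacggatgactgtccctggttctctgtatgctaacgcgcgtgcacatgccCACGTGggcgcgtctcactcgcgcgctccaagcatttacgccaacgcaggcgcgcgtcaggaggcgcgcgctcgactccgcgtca
Grin2c, chr11:115267244-115267493, minus strand: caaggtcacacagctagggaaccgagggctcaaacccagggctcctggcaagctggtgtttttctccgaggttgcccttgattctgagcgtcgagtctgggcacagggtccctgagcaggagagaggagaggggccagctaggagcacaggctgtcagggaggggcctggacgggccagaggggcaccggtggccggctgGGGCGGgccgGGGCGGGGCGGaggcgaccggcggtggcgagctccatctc
The Grin1 window held 27 CpG dinucleotides, 58.8% G and C, 2 E-boxes and 0 GC boxes, and the Grin2c window 15 CpG dinucleotides, 68.8% G and C, 3 GC boxes and 0 E-boxes. The window of Grin2d, which like Grin2c fell in JQ1, held 9 CpG dinucleotides, 54.4% G and C, 0 GC boxes and 0 E-boxes. It was placed by the RefSeq start, at chr7:45866682-45866931, which lies inside the locus given above. Unlike the windows of Grin1 and Grin2c, it is therefore not upstream of that locus, and its letters are not directly comparable. Of 32851 promoters of the same length, 6.02% held an E-box and 32.7% a GC box, and the median number of CpG dinucleotides was 6. These matches describe letters, say nothing of binding and were not tested against the direction of change.

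Library totals ran from 21643592 to 134110850 gene counts. Fmr1, which checks the labels, averaged 29.4 ± 4.59 CPM (read counts scaled to a common library size) in KO and 144.5 ± 9.19 CPM in WT in JQ1, and 24.4 ± 4.40 CPM in KO and 121 ± 2.89 CPM in WT in DMSO (SD, n = 3 each). Both KO replicate 3 libraries stood apart in their sex-linked genes. The X-inactivation transcript Xist was 4.29 and 4.34 CPM in them and 230.5 to 441 CPM in the other 10 libraries, and the Y-linked gene Ddx3y was 54.5 to 76.2 CPM in them and 28.1 to 46.1 CPM in the others. Leaving both out ended no call of a subunit gene. Markers of excitatory neurons (7 of 7 genes, summed level 1014 to 1215 CPM over all libraries) and of inhibitory neurons (10 of 10, 432 to 719 CPM) were detected, and those of astrocytes too (7 of 7, 226 to 657 CPM). In bulk RNA, fewer cells of a type and less RNA per cell cannot be told apart.

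All log2 changes below come from edgeR's quasi-likelihood test with trimmed-mean scaling, which centres the bulk of genes on no change, with p-values adjusted over all 15433 genes (Benjamini-Hochberg) and a call at an adjusted p under 0.05. When libraries were scaled to their spiked-in ERCC RNA instead, the median of all genes moved on the log2 scale. For KO over WT the shift was -0.81 in DMSO and -0.12 in JQ1, for JQ1 over DMSO it was -0.63 in WT and 0.063 in KO, and for the difference of the JQ1 responses it was 0.69. With spike-in scaling, 11990 of all 15433 genes were called lower for KO over WT in DMSO, but only 23 were called at all in JQ1. For JQ1 over DMSO, 5814 were called lower in WT and 1314 in KO. The sources used here do not give the amount of spike-in RNA per cell. Its share of the reads also varied between replicates, which enters every value with spike-in scaling. That share was 0.348%, 0.168% and 0.244% in KO in DMSO and 0.118%, 0.125% and 0.173% in WT in DMSO. In JQ1 it was 0.243%, 0.207% and 0.193% in KO and 0.181%, 0.173% and 0.261% in WT. A call lost with this scaling is therefore not evidence of no change. Directions that differ between these scalings are named where they arise. Ratios between 2 subunits within a library do not depend on the scaling.

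Between genotypes, Grin3a was lower in KO and Grin1 was higher in KO relative to all genes, but Grin1 had the opposite sign in DMSO under spike-in scaling. No GluN2 gene was called. In KO against WT neurons in DMSO, 2 of the 6 tested members were called, against 15% of all genes tested. They are Grin1 and Grin3a, while 7.21% of all genes were called higher and 7.76% lower. The libraries of the 2 groups did not overlap for 3 of the 6 members, against 37.6% of all genes. The median log2 change of the 6 members was 0.21, and that of all genes -0.015. In JQ1 the same 2 genes were called in the same directions, against 8.97% of all genes (4.85% higher and 4.13% lower), and 3 of the 6 members did not overlap, against 27% of all genes.

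Grin1 measured 130.8, 132.7 and 124.6 CPM in the 3 KO libraries in DMSO and 95.9, 94.8 and 95.6 CPM in the 3 WT libraries in DMSO. The KO libraries all lay above the WT libraries, which were within about 1 CPM of one another. The log2 change was 0.44 (SE 0.0617, adjusted p = 0.00108), a 1.36-fold difference relative to all genes, but with spike-in scaling the value was -0.37 (adjusted p = 0.246). In JQ1, Grin1 measured 166.4, 154.3 and 139.1 CPM in KO and 121.2, 116.1 and 130.9 CPM in WT. The groups again did not overlap. The log2 change was 0.32 (SE 0.0613, adjusted p = 0.00716), or 0.21 (adjusted p = 1) with spike-in scaling. The authors' deposited table of KO against WT gives a log2 fold change of 0.435 (SE 0.0507) for Grin1, with an adjusted p of 5.79e-15.

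Grin3a was 46.1, 56.0 and 46.7 CPM in KO libraries in DMSO and 68.0, 64.9 and 73.2 CPM in WT libraries in DMSO. Every KO library lay below every WT library. The log2 change of -0.47 (SE 0.0751, adjusted p = 0.00215) kept its sign with spike-in scaling, at -1.23 (adjusted p = 0.00366). In JQ1 it was 19.8, 20.8 and 18.2 CPM in KO and 28.8, 28.5 and 31.1 CPM in WT, again without overlap. Here the log2 change was -0.58 (SE 0.0804, adjusted p = 0.0016) and -0.69 with spike-in scaling, where the call was lost (adjusted p = 1). In the authors' deposited table the log2 fold change of Grin3a, KO over WT, is -0.408, with an adjusted p of 2.18e-06.

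The 4 GluN2 genes gave no call between genotypes. Grin2d came nearest in DMSO, at 24.0, 22.9 and 24.6 CPM in KO and 21.7, 21.0 and 21.9 CPM in WT. Its groups did not overlap, but the log2 change of 0.15 (SE 0.0642) had an adjusted p of 0.135, and it turned to -0.67 with spike-in scaling, where it was called (adjusted p = 0.0395). In JQ1 its change was 0.014 (95% interval -0.13 to 0.16, adjusted p = 0.931) and -0.11 with spike-in scaling. Grin2c reads were few: the counts in DMSO were 26, 46 and 45 in KO and 22, 26 and 22 in WT, with a log2 change of 0.058 (95% interval -0.50 to 0.62, adjusted p = 0.91) and of -0.72 with spike-in scaling. In JQ1 they were 5, 14 and 8 in KO and 4, 10 and 0 in WT, where a count of 0 allows up to 0.140 CPM. There the fitted log2 change was 1.40 (SE 0.468, adjusted p = 0.0735), a wide estimate from 27 counts in KO and 14 in WT. The limma-voom fit gave 1.69 and called it (adjusted p = 0.041).

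Grin2a and Grin2b varied widely between replicates, and their groups overlapped. Grin2b, in CPM, was 75.4, 102.4 and 50.3 in KO in DMSO and 34.5, 53.3 and 99.6 in WT in DMSO. The WT libraries alone spanned a 2.88-fold range and held both the lowest value of all 12 libraries and the second highest. The log2 change was 0.28 (95% interval -0.37 to 0.93, adjusted p = 0.568) and -0.36 with spike-in scaling. In JQ1, Grin2b was 63.9, 86.2 and 53.6 CPM in KO and 58.5, 62.9 and 57.0 CPM in WT, a log2 change of 0.20 (95% interval -0.45 to 0.85, adjusted p = 0.733). Grin2a measured 6.03, 6.96 and 4.75 CPM in KO in DMSO and 3.34, 3.97 and 5.97 CPM in WT in DMSO. Its log2 change was 0.42 (95% interval -0.031 to 0.87, adjusted p = 0.191) and -0.31 with spike-in scaling. In JQ1 it was 5.12, 5.6 and 3.44 CPM in KO and 5.23, 4.54 and 3.83 CPM in WT, with a log2 change of 0.060 (95% interval -0.39 to 0.51, adjusted p = 0.894) and of -0.096 with spike-in scaling. The intervals of Grin2b in DMSO and in JQ1 and of Grin2a in DMSO do not exclude changes of over 1.5-fold.

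**Figure D1:**
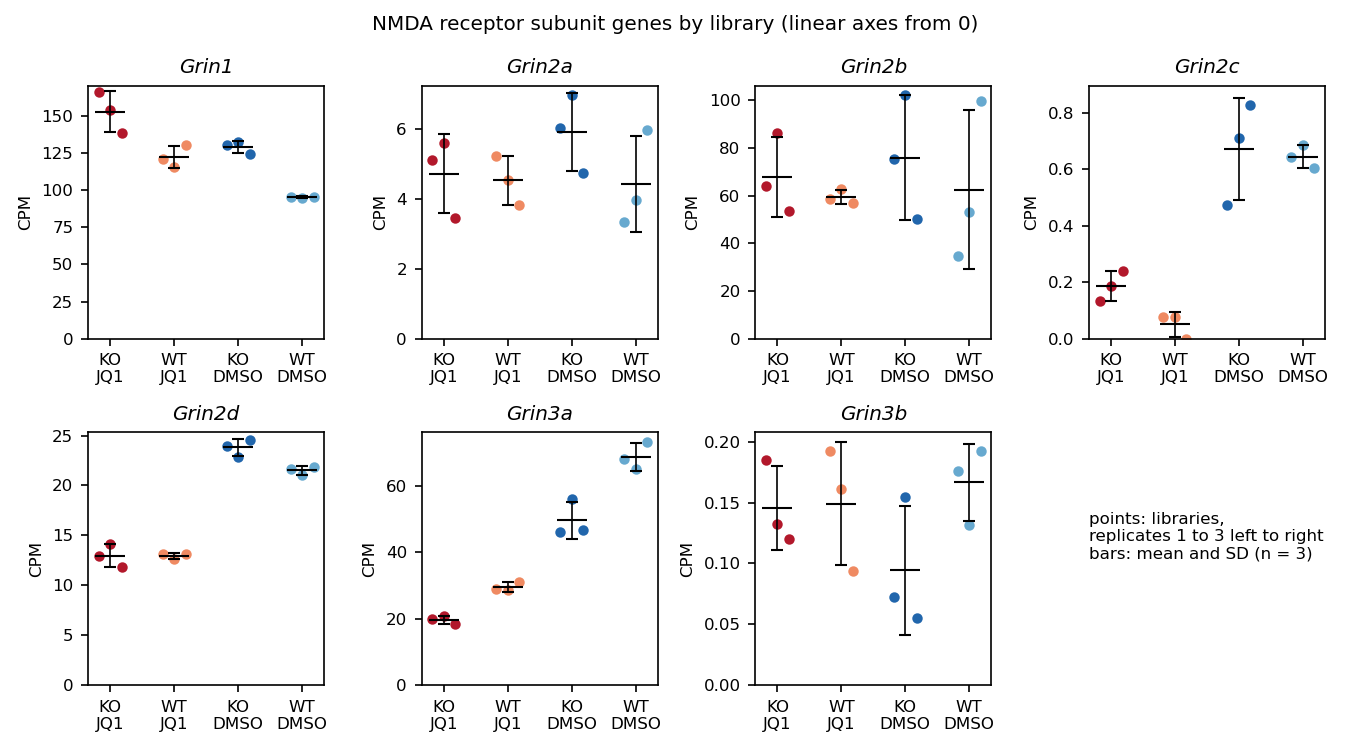
CPM (linear axes from 0) of the 7 NMDA receptor subunit genes in each of the 12 libraries, with the mean and SD of 3 libraries per group. Grin1 in KO in DMSO (124.6 to 132.7 CPM) lay above WT in DMSO (94.8 to 95.9 CPM), Grin3a in KO in DMSO (46.1 to 56.0) lay below WT in DMSO (64.9 to 73.2), and the libraries of Grin2a and Grin2b were mixed. With spike-in scaling the Grin1 difference in DMSO was -0.37 on the log2 scale.

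In JQ1 against DMSO, Grin2c, Grin2d and Grin3a fell and Grin1 rose in each genotype, the last with the opposite sign in WT under spike-in scaling. In WT neurons 4 of the 6 tested members were called, against 55.1% of all genes tested (25.9% higher and 29.3% lower), and in KO neurons the same 4 were called, against 57.1% (27.7% higher and 29.4% lower). With calls in 55.1% and 57.1% of all genes, 4 of 6 lies near the background, and Grin2c is among the 4. The member libraries did not overlap for 4 of 6 members in both genotypes, against 62.6% of all genes in WT and 60.7% in KO. The members' median log2 change was -0.40 in WT and -0.58 in KO, and that of all genes -0.0043 and 0.0014. These medians and the 4 of 6 without overlap include Grin2c, which passed the filter on low counts only through its DMSO libraries. Its fall was thus fixed beforehand, and neither figure describes the family free of that filter. Among all genes ranked by p, Grin3a was number 112 in WT and number 94 in KO.

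Grin3a fell to 0.427 times its DMSO level in WT and to 0.396 times in KO. Its libraries in JQ1 were 28.8, 28.5 and 31.1 CPM in WT, against 68.0, 64.9 and 73.2 CPM in WT in DMSO, and 19.8, 20.8 and 18.2 CPM in KO, against 46.1, 56.0 and 46.7 CPM in KO in DMSO. The log2 changes were -1.23 in WT (SE 0.0777, adjusted p = 2.85e-08) and -1.34 in KO (SE 0.079, adjusted p = 1.33e-08). Scaling to spike-in RNA gave -1.86 in WT (adjusted p = 9.91e-08) and -1.32 in KO (adjusted p = 0.000608).

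Grin2d measured 13.1, 12.6 and 13.1 CPM in WT in JQ1 and 21.7, 21.0 and 21.9 CPM in WT in DMSO, and 12.9, 14.1 and 11.9 CPM in KO in JQ1 and 24.0, 22.9 and 24.6 CPM in KO in DMSO. No JQ1 library reached a DMSO library of its genotype. The gene fell by 0.73 in WT (SE 0.0669, adjusted p = 7.18e-07) and by 0.87 in KO (SE 0.0654, adjusted p = 1.16e-07) on the log2 scale, and the KO call was lost with spike-in scaling (-0.81, adjusted p = 0.0745). Grin2c had 4, 10 and 0 counts in WT in JQ1 and 22, 26 and 22 in WT in DMSO, and 5, 14 and 8 counts in KO in JQ1 and 26, 46 and 45 in KO in DMSO. No JQ1 library reached a DMSO library of its genotype, and the fitted log2 changes were -3.20 in WT (SE 0.382, adjusted p = 8.34e-06) and -1.86 in KO (SE 0.313, adjusted p = 0.000173). Grin2c passed the filter on low counts only through its DMSO libraries, so its fall had to be seen if it was tested at all.

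Grin1 was the member that rose, at 121.2, 116.1 and 130.9 CPM in WT in JQ1 against 95.9, 94.8 and 95.6 CPM in WT in DMSO. Its log2 change was 0.36 (SE 0.0619, adjusted p = 0.000215) and turned to -0.28 with spike-in scaling (adjusted p = 0.409). In KO it was 166.4, 154.3 and 139.1 CPM in JQ1 and 130.8, 132.7 and 124.6 CPM in DMSO, a log2 change of 0.25 (SE 0.061, adjusted p = 0.0034) and 0.29 with spike-in scaling (adjusted p = 0.72). The JQ1 libraries lay above the DMSO libraries in both genotypes. Grin2a changed by 0.057 in WT (95% interval -0.41 to 0.52, adjusted p = 0.843; -0.51 with spike-in scaling) and by -0.30 in KO (95% interval -0.74 to 0.13, adjusted p = 0.22). Grin2b changed by -0.069 in WT (95% interval -0.72 to 0.59, adjusted p = 0.866) and by -0.16 in KO (95% interval -0.80 to 0.49, adjusted p = 0.678). Neither gene was called.

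**Figure D2:**
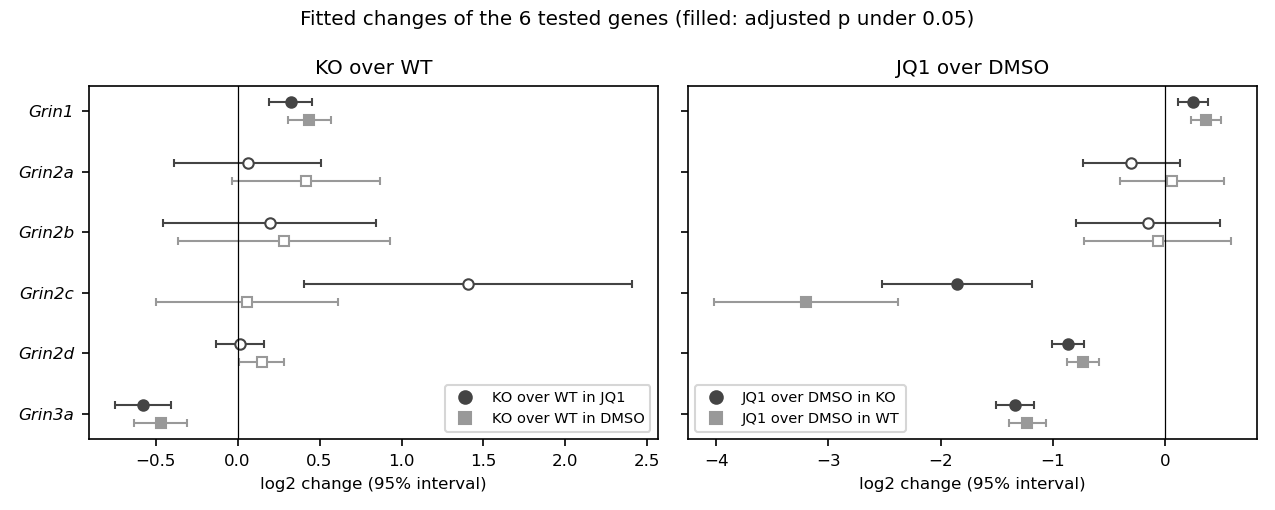
Fitted log2 changes with 95% intervals of the 6 tested genes, KO over WT (left, JQ1 above DMSO) and JQ1 over DMSO (right, KO above WT); filled symbols were called. Grin3a lay below 0 in all 4 comparisons (-0.58 and -0.47, -1.34 and -1.23) and Grin1 above 0 in all 4 (0.32 and 0.44, 0.25 and 0.36), with Grin1 turning negative under spike-in scaling for KO over WT in DMSO and JQ1 over DMSO in WT.

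The response to JQ1 was compared between genotypes by an interaction term. No member was called, and no gene of the 15433 (0%) by edgeR, DESeq2 or limma-voom, while 355, 235 and 357 genes had an unadjusted p under 0.05. These fits did not pair same-numbered libraries. An edgeR fit that blocked on replicate number within each genotype called 0 genes too, but 688 had an unadjusted p under 0.05. The difference of the log2 responses, KO minus WT, was -0.12 for Grin1 (95% interval -0.30 to 0.071), -0.11 for Grin3a (-0.34 to 0.13), -0.13 for Grin2d (-0.33 to 0.067), -0.36 for Grin2a (SE 0.297) and -0.087 for Grin2b (SE 0.428). Spike-in scaling gave positive values for these 5 genes (0.21 to 0.58), none of them called. Grin2c, the member with the fewest counts, was the 1 member with an unadjusted p under 0.05 in edgeR's test (1.35, SE 0.535, adjusted p = 1).

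KO neurons in JQ1 were also set against WT neurons in DMSO, which asks how far treated KO neurons stood from untreated WT neurons. This comparison shares libraries with those above. Of the 6 members 4 were called, against 58.4% of all genes (27.4% higher and 30.9% lower), and 4 of 6 did not overlap, against 62.8%. The 4 include Grin2c, whose fall was fixed by the filter here too. Grin1 was 1.61-fold higher (log2 change 0.68, SE 0.0619, adjusted p = 5.45e-07; -0.073 with spike-in scaling). Grin3a had 0.286 times its level (log2 change -1.81, SE 0.0799, adjusted p = 1.47e-09), Grin2d a log2 change of -0.72 and Grin2c one of -1.80. Set beside the changes of untreated KO neurons over the same WT libraries (0.44 for Grin1 and -0.47 for Grin3a), both values were larger in size; with spike-in scaling Grin1 had -0.073 beside -0.37, and Grin3a -2.55 beside -1.23. Grin2a (0.12, adjusted p = 0.664) and Grin2b (0.13, adjusted p = 0.742) were not called, and both turned negative with spike-in scaling (-0.61 and -0.53). Without WT replicate 3 in DMSO, Grin2b was called (log2 change 0.64, adjusted p = 0.0487).

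Grin3b stayed near the floor of detection. Its counts were 7, 10 and 4 in KO in JQ1, 10, 21 and 2 in WT in JQ1, 4, 10 and 3 in KO in DMSO and 6, 5 and 7 in WT in DMSO. It was at or under 0.193 CPM in every library, and no difference was tested.

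To compare members with one another, CPM was divided by the length of the main transcript in kb. Grin1 stood first in every group, at 35.8 ± 3.20 CPM per kb in KO in JQ1, 28.7 ± 1.76 in WT in JQ1, 30.3 ± 0.984 in KO in DMSO and 22.3 ± 0.128 in WT in DMSO. In DMSO, Grin3a came second, at 6.62 ± 0.740 in KO and 9.17 ± 0.560 in WT, above every library of Grin2d (4.39 ± 0.157 in KO and 3.96 ± 0.0837 in WT). Grin2d overlapped Grin2b (3.16 ± 1.08 in KO and 2.60 ± 1.39 in WT), so their order was not resolved on this scale. The scale divides Grin2b by 24060 bases, of which 4446 are coding. Before that division Grin2b averaged 76.0 CPM in KO and 62.5 CPM in WT, and Grin2d 23.8 and 21.5 CPM. How much of the annotated length carried reads was not examined. Grin2a followed at 0.404 ± 0.0759 in KO and 0.303 ± 0.0937 in WT, then Grin2c at 0.137 ± 0.0371 in KO and 0.132 ± 0.00809 in WT, and Grin3b was last, at 0.0287 ± 0.0162 in KO and 0.0508 ± 0.00959 in WT.

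In JQ1 the lead of Grin3a over the GluN2 genes was smaller. In KO, Grin2b (2.82 ± 0.693 CPM per kb), Grin3a (2.61 ± 0.171) and Grin2d (2.39 ± 0.208) overlapped. In WT, Grin3a (3.93 ± 0.193) stood above Grin2b (2.47 ± 0.128) and Grin2d (2.39 ± 0.0524), which overlapped. Grin3b lay at 0.0443 ± 0.0105 in KO and 0.0454 ± 0.0154 in WT, and Grin2c was last at 0.0379 ± 0.0110 in KO and 0.0105 ± 0.00907 in WT. Dividing by all annotated exon bases instead lowered Grin1 to between 9.84 and 15.8 CPM per kb, still first in every group. On that scale the order in JQ1 changed. In KO, Grin2b (2.73 ± 0.671) lay above Grin2d (1.95 ± 0.169) and Grin2d above Grin3a (1.59 ± 0.104), none overlapping the next. In WT, Grin3a (2.40 ± 0.118) overlapped Grin2b (2.39 ± 0.124).

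**Figure D3:**
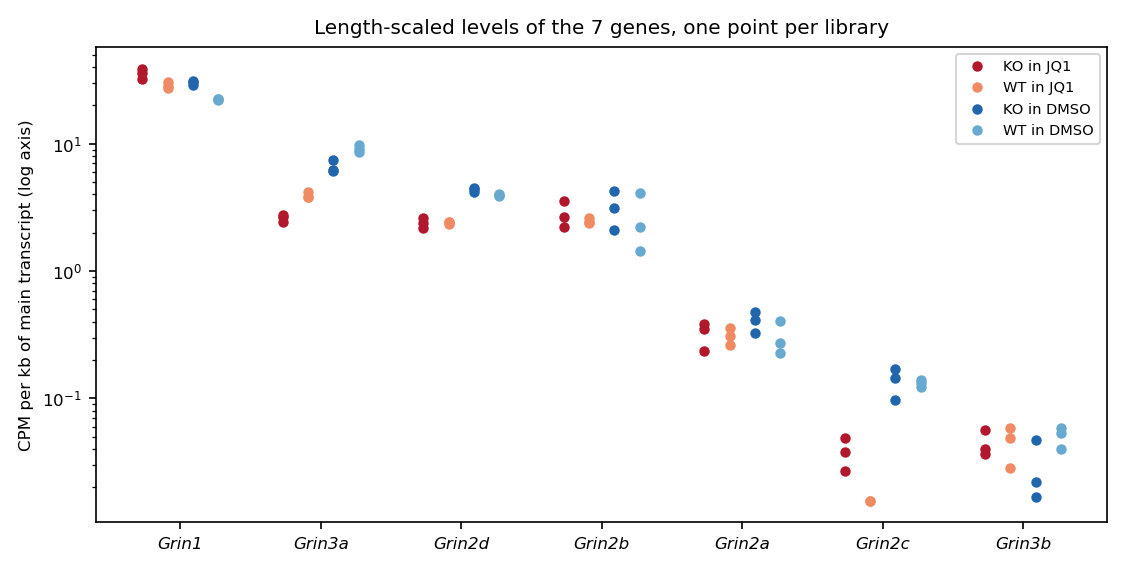
CPM per kb of main transcript (log axis) of the 7 genes, 1 point per library and 4 columns per gene (KO in JQ1, WT in JQ1, KO in DMSO, WT in DMSO). Grin1 lay at 22.2 to 38.9 in all libraries, above every library of the other genes, and the library of WT in JQ1 with 0 counts of Grin2c cannot be drawn on this axis.

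Whether members moved apart was tested on ratios of counts within a library, which leave scaling out, by two-sided exact permutation over the libraries within each stratum (smallest possible p = 0.005, n = 3 libraries per group). Over Grin2b as denominator 8 ratios were tested. The ratio of Grin3a to Grin2b was lower in KO than in WT by 0.79 on the log2 scale (exact p = 0.01, adjusted p = 0.04) and lower in JQ1 than in DMSO by 1.25 (p = 0.005, adjusted p = 0.04). The first of these calls was lost without 1 library in 10 of the 12 refits (each library but KO replicate 3 and WT replicate 3 in DMSO; adjusted p up to 0.107), and the second without WT replicate 1, 2 or 3 in JQ1 (adjusted p = 0.08, 0.08 and 0.05). The ratio of Grin2d to Grin2b was lower in JQ1 by 0.77 (exact p = 0.025, adjusted p = 0.0667) and was called only without WT replicate 3 in DMSO (-0.97, adjusted p = 0.0133). The ratio of Grin2a to Grin2b, the subunit pair that exchanges during cortical development, differed by -0.020 between KO and WT (p = 0.885) and by -0.10 between JQ1 and DMSO (p = 0.465) in the same exact test.

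After the spread of Grin2b had been seen, Grin1 was taken as denominator too, in 6 further ratios. The ratio of Grin3a to Grin1 was lower by 0.91 in KO than in WT and by 1.58 in JQ1 than in DMSO, and that of Grin2d to Grin1 by 0.31 and by 1.11 (exact permutation p = 0.005 for each, the smallest this test can give, adjusted p = 0.0075). These 4 calls held without each library in turn. Within strata the Grin3a to Grin1 ratio differed by -0.91 between KO and WT in JQ1 and by -0.91 in DMSO, and by -1.58 between JQ1 and DMSO in KO and by -1.58 in WT. The ratio of Grin2a to Grin1 was lower in JQ1 by 0.44 (exact p = 0.045, adjusted p = 0.054), and was called without KO replicate 2 in JQ1, WT replicate 1 in JQ1 or WT replicate 1 in DMSO (adjusted p = 0.048, 0.042 and 0.018).

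The spread of Grin2a and Grin2b moved together. Over the 12 libraries their log2 levels correlated at r = 0.87, and their deviations from the group means at r = 0.89. This is a description, since both share library, depth and very long transcripts. In WT in DMSO, replicate 3 exceeded replicate 1 by 1.53 for Grin2b and by 0.83 for Grin2a on the log2 scale, but by -0.0036 for Grin1. Over all protein-coding genes tested, the same difference had a median of 0.35 for the 178 genes with transcripts over 12 kb, 0.12 for those of 8 to 12 kb and -0.023 for those of 2 to 4 kb. In KO in DMSO, replicate 2 exceeded replicate 3 by 1.03 for Grin2b and 0.55 for Grin2a, with a median of 0.32 for transcripts over 12 kb. These pairs were chosen for their wide gaps in Grin2b. In 4 other pairs the median for transcripts over 12 kb was 0.18 (KO in DMSO, replicate 2 over 1), 0.19 (KO in JQ1, 2 over 3), 0.050 (WT in DMSO, 2 over 1) and 0.013 (WT in JQ1, 2 over 3), where Grin2b differed by 0.44, 0.69, 0.63 and 0.14. In WT in JQ1 (2 over 3) the medians rose from -0.13 under 2 kb to 0.12 at 8 to 12 kb, and only the class over 12 kb departed from this. In WT in DMSO (2 over 1) the medians of the length classes ran only from -0.011 to 0.050. Transcript length thus moved with the differences to an unequal degree between pairs, and its part in the values of Grin2a and Grin2b was not tested.

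**Figure D4:**
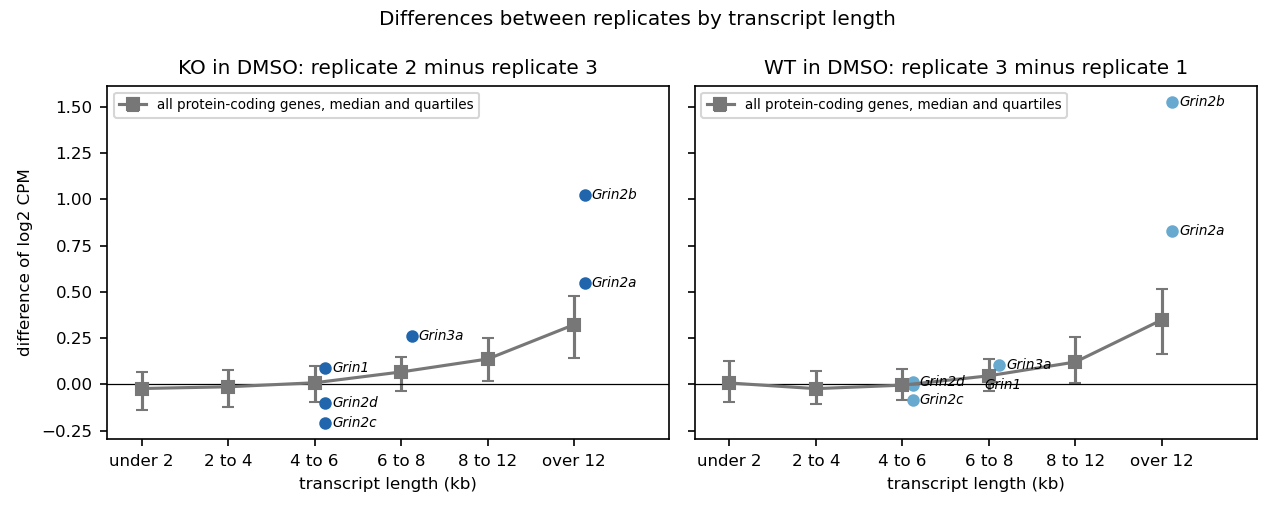
Difference of log2 CPM between 2 replicates of KO in DMSO (left) and of WT in DMSO (right) by transcript length in kb, with squares for the median and bars for the quartiles of all protein-coding genes tested and circles for the tested members. Grin2a and Grin2b, with transcripts over 12 kb, lay above the medians of 0.32 and 0.35 of their length class, and Grin1 lay near 0.

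Markers of other cells differed between the groups as well. Inhibitory neuron markers were called higher in KO than in WT in DMSO for 6 of 10 genes and lower for 0 of 10, against 7.21% and 7.76% of all genes, and their summed level was 654 to 719 CPM in KO and 478 to 590 CPM in WT. With spike-in scaling 1 was higher and 1 lower. Astrocyte markers were lower in KO than in WT in DMSO for 2 of 7 genes (7 of 7 with spike-in scaling), and their sums, 369 to 510 CPM in KO and 543 to 657 CPM in WT, did not overlap. Progenitor markers were lower in KO for 1 of 7 genes in DMSO and 3 of 7 in JQ1, against 7.76% and 4.13% of all genes. Markers of fibroblasts and endothelium were called lower for 2 and 1 of 6 and higher for 0. The median log2 change of that list was nevertheless positive, at 0.42 in DMSO and 0.51 in JQ1. In JQ1 against DMSO, astrocyte markers were called lower for 5 of 7 genes in WT and 4 of 7 in KO, against 29.3% and 29.4% of all genes. Their sum was 395 to 520 CPM in WT in JQ1 and 543 to 657 CPM in WT in DMSO, and 226 to 389 CPM in KO in JQ1 and 369 to 510 CPM in KO in DMSO. With spike-in scaling 7 of 7 were lower in WT and 3 of 7 in KO. Also lower in JQ1 were 3 of 8 oligodendrocyte lineage markers and 3 of 6 fibroblast and endothelial markers in each genotype, and 2 of 6 tested microglia markers in WT and 4 of 6 in KO, where the microglia marker P2ry12 was at 0 in JQ1. Of the oligodendrocyte lineage markers, 1 was called higher in JQ1 in WT and 0 in KO. The part of these cell types in the values of Grin1, Grin2c, Grin2d and Grin3a was not tested.

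For each tested member the 2 genes whose log2 CPM followed it best over the 12 libraries were, as a description, Clstn3 (r = 0.987) and D19Wsu162e (0.981) for Grin1, Ksr2 (0.933) and Bcl9l (0.906) for Grin2a, and Eif2c2 (0.964) and D10Bwg1379e (0.954) for Grin2b. They were Jazf1 (0.970) and Pde1b (0.965) for Grin2c, Myh7 (0.993) and Chd3 (0.992) for Grin2d, and Gdf10 (0.991) and Gpr123 (0.989) for Grin3a. These points share the split between JQ1 and DMSO and that between genotypes.

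Another 83 genes of proteins that bind, modify, feed or regulate NMDA receptors were listed by role, and 79 of them were tested. In KO against WT in DMSO, 12 were called higher and 7 lower, against 7.21% and 7.76% of all genes, with a median log2 change of 0.048. In JQ1, 9 were higher and 5 lower, against 4.85% and 4.13%. In JQ1 against DMSO, 30 were higher and 16 lower in WT (median 0.072), and 26 were higher and 17 lower in KO (median 0.039). As 55.1% and 57.1% of all genes were called there, the number of partners called lies near the background. None was called in the difference of the responses. These counts rest on trimmed-mean scaling. With spike-in scaling 0 of the 79 were higher in any of the 4 comparisons, while 58 were lower in KO in DMSO, 0 in KO in JQ1, 18 in JQ1 in WT and 2 in JQ1 in KO.

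Among genes of scaffold and transport proteins, 3 of 13 were higher and 0 lower in KO in DMSO, against 7.21% and 7.76% of all genes. Without KO replicate 1 or WT replicate 1 in DMSO, Dlg3 (adjusted p = 0.0520 and 0.0515) and Kif17 (0.0772 and 0.0844) were not called, which leaves Dlg4 alone of the 3. Dlg4, which encodes PSD-95, the postsynaptic scaffold that binds GluN2 tails, averaged 398 ± 14.9 CPM in KO and 332 ± 10.8 CPM in WT (SD, n = 3 each; log2 change 0.26, adjusted p = 0.00432; -0.54 with spike-in scaling). Among kinase and phosphatase genes 4 of 21 were higher and 0 lower in KO. They included Camk2a, the kinase subunit that docks on GluN2B (0.36, adjusted p = 0.00557; -0.43 with spike-in scaling), Camk2b, another subunit of that kinase (0.27, adjusted p = 0.0092; -0.55), and Csnk2b, the regulatory subunit of casein kinase 2 (0.26, adjusted p = 0.00281; -0.55). In JQ1 these 4 changes of KO over WT were 0.20 for Dlg4, 0.32 for Camk2a, 0.22 for Camk2b and 0.22 for Csnk2b, all called, with adjusted p-values of 0.0199, 0.0141, 0.0305 and 0.00832. Leaving out 1 library ended the JQ1 calls of Dlg4 and Camk2b in 5 of 6 refits (each library but KO replicate 3; adjusted p up to 0.0803 and 0.124). Without KO replicate 2 or WT replicate 1 in JQ1, Camk2a was not called there (adjusted p = 0.0540 and 0.0745).

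Of 14 calcium effector genes, 3 were higher and 1 lower in KO in DMSO, against 7.21% and 7.76% of all genes. They were led by Calm3, a calmodulin gene (0.31, adjusted p = 0.00253; -0.51 with spike-in scaling). The lower one, Creb1, an activity-dependent transcription factor (-0.23), lost its call without KO replicate 1 or 2 or WT replicate 1 or 3 in DMSO (adjusted p up to 0.174), and Rasgrf2, among the higher ones (0.36; -0.46 with spike-in scaling), without KO replicate 1 or WT replicate 1 (0.0745 and 0.0555). Of 9 membrane partners 1 was higher, Ephb2, a receptor kinase that clusters NMDA receptors (0.31, adjusted p = 0.00544; -0.49 with spike-in scaling), and 2 were lower. The lower ones were Efnb1, an ephrin ligand (-0.18, adjusted p = 0.0141), and Neto1, an auxiliary protein of NMDA and kainate receptors (-0.34, adjusted p = 0.0416), and neither call was firm. Efnb1 lost it without KO replicate 1 or 2 or WT replicate 3 in DMSO (adjusted p up to 0.106), and Neto1 without any DMSO library but WT replicate 1 (adjusted p up to 0.199). Of 12 tested genes of co-agonist supply and the kynurenine pathway, 0 were higher and 2 lower. These were Psph, the last step of serine synthesis (-0.30, adjusted p = 0.0123), and Gldc, which breaks down glycine (-0.50, adjusted p = 0.0273). Psph lost its call without KO replicate 1, KO replicate 2 or WT replicate 3 in DMSO (adjusted p = 0.0793, 0.0508 and 0.0678). Gldc lost it without KO replicate 1 or 2 or WT replicate 2 or 3 (adjusted p = 0.141, 0.0588, 0.0768 and 0.123).

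In JQ1 against DMSO, in the transcription group, 8 of 11 were higher and 1 lower in WT, and likewise 8 and 1 in KO, against 0 higher with spike-in scaling in both. Of all genes tested, 25.9% were called higher in WT and 27.7% in KO, and with spike-in scaling 40 and 206 of 15433. Among them Brd2, which encodes a target of JQ1, was higher by 0.63 in WT (adjusted p = 4.28e-08) and by 0.61 in KO, but in WT it was at -0.011 with spike-in scaling. Rcor1, which encodes the co-repressor CoREST, was higher by 0.27 in WT (adjusted p = 7.6e-05; -0.37 with spike-in scaling) and by 0.34 in KO. Rest, a repressor of neuronal genes, rose to 22.6 ± 1.09 CPM in WT in JQ1, against 13.0 ± 0.396 CPM in WT in DMSO (log2 change 0.81, adjusted p = 2.27e-07; 0.77 in KO). With spike-in scaling these were 0.17 (adjusted p = 0.625) and 0.83 (adjusted p = 0.0636), neither called. Rest was lower in KO than in WT, by -0.31 in DMSO (adjusted p = 0.00927) and -0.34 in JQ1 (adjusted p = 0.00587), with the first call lost without KO replicate 1 in DMSO (adjusted p = 0.0616).

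In WT, 5 of 14 calcium effector genes were higher and 2 lower in JQ1, 6 of 21 kinase and phosphatase genes were higher and 4 lower, 4 of 13 scaffold and transport genes were higher and 3 lower, and 3 of 9 membrane partners were higher and 1 lower. Of all genes tested, 25.9% were called higher and 29.3% lower in this comparison. Nos1, the neuronal nitric oxide synthase tethered to receptors through PSD-95, was 24.3 ± 3.84 CPM in WT in JQ1 and 64.5 ± 5.90 CPM in WT in DMSO (log2 change -1.39, adjusted p = 9.1e-07; -1.53 in KO). Rasgrf2, a calcium-sensitive exchange factor for Ras, changed by -1.09 (adjusted p = 3.49e-07; -0.86 in KO), and Ptpn5, the phosphatase STEP that promotes receptor removal, by -0.76 (adjusted p = 3.76e-08; -0.80 in KO). Of the co-agonist genes 5 of 12 were higher and 5 lower in WT, among the lower ones Slc6a9, the glycine transporter GlyT1 (-0.82, adjusted p = 1.13e-05; -0.88 in KO), and Neto1, a membrane partner, fell too (-0.64, adjusted p = 0.000176; -0.62 in KO). Prkca, a protein kinase C, and Gipc1, an adaptor of receptor trafficking, rose by 0.51 (adjusted p = 1.54e-05) and 0.53 (adjusted p = 1e-06) in WT, and both were at -0.11 with spike-in scaling. That scaling also ended the KO calls of Rasgrf2 (adjusted p = 0.0813), Ptpn5 (0.115), Slc6a9 (0.0752) and Neto1 (0.288), which stayed negative.

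**Figure D5:**
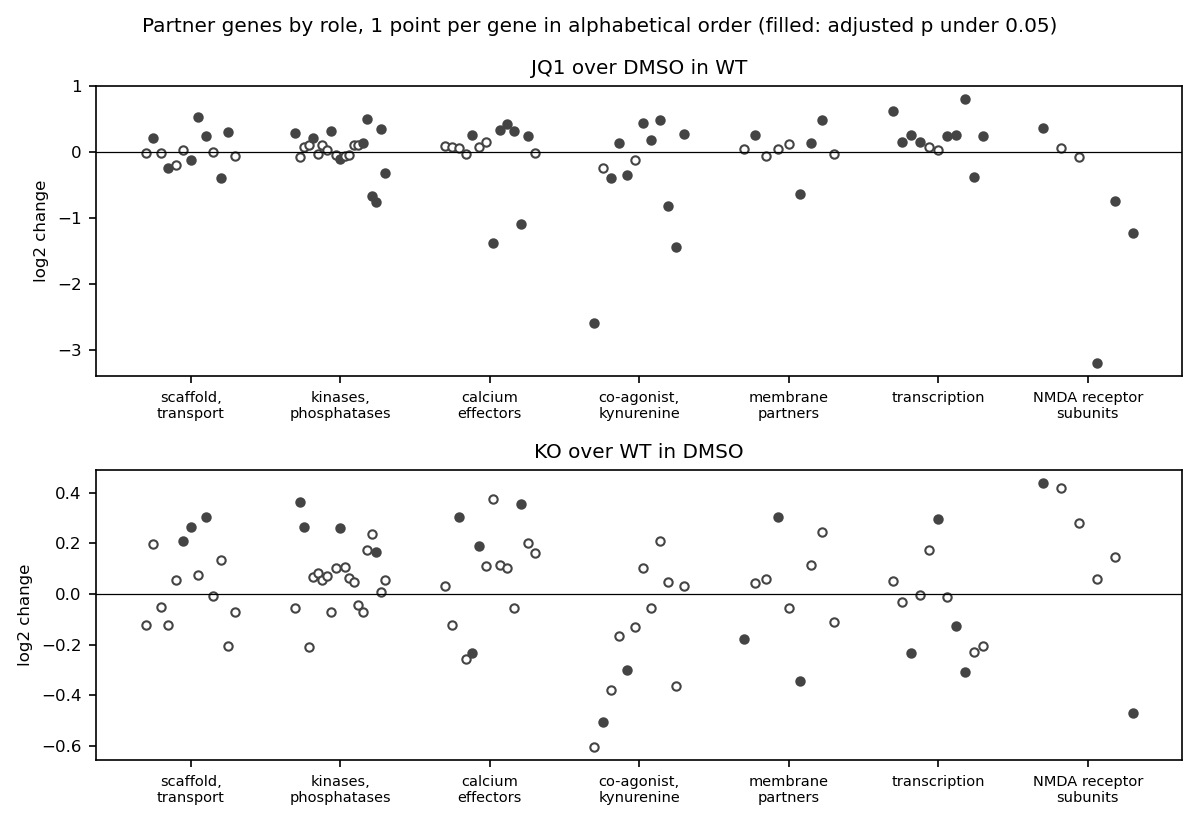
Log2 changes of the 79 tested partner genes by role, 1 point per gene in alphabetical order within a role, and of the 6 tested subunit genes, for JQ1 over DMSO in WT (top) and KO over WT in DMSO (bottom); filled points were called. Among partners 30 were called higher and 16 lower in the top panel, 12 higher and 7 lower in the bottom panel. The values are relative to all genes, whose median moved by -0.63 (top) and -0.81 (bottom) with spike-in scaling.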

How the data were processed

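RNA of cultured cortical neurons was sequenced as 75-base single reads, per the labels' protocols. Reads were handled with TopHat2 2.1.0, SAMtools 0.1.19 and HTSeq 0.6.1 on the mm9 build, per the submitters' processing notes. The deposited count table holds whole read counts per gene for 12 of the 18 labelled samples, and the 6 THZ1 samples were not analysed here. The authors' deposited table of KO against WT gives the mean signal (a normalised count), a log2 fold change with its standard error, a Wald score and p-values, raw and adjusted, and was used only where named.

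Genes were filtered (filterByExpr, minimum count 10), leaving 15433, dropping 21877, and scaled by TMM in edgeR 4.0.16 under R 4.3.3. All 12 libraries entered a quasi-likelihood model of the 4 group means (8 residual degrees of freedom, biological coefficient of variation 6.69%). CPM values use TMM-scaled library sizes. DESeq2 1.42.0, limma 3.58.1 (voom), scaling by DESeq's method and by ERCC spike-ins (86 of 92 detected), no filter, a replicate block, and leaving out libraries served as alternatives. The script was checked on simulated counts with known changes. Replicates differed by more than counting noise (chi-square per degree of freedom 4.67 to 37.8). The 95% intervals come from the fit, and the floor is 3 counts. Floors cover counting error only. Lengths, loci and shared stretches come from GENCODE M21 (GRCm38), not the authors' build.

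Same-numbered libraries deviated together in JQ1 against DMSO in KO (r = 0.212 to 0.287) and less in WT (0.0941 to 0.158). Between genotypes r ran from -0.18 to 0.0112 in DMSO and from -0.016 to 0.116 in JQ1, which overlaps the WT range. The same-numbered library was the best match for 3 of 3 in KO and in WT. Between genotypes it was so for 0 of 3 in DMSO and 2 of 3 in JQ1. Correlations used log2 CPM with a prior count of 2. The members and lists were chosen with earlier results of these data known. Genes named beside the members are Fmr1, up to 3 called partners of smallest adjusted p per role in each of KO over WT in DMSO and JQ1 over DMSO in WT (not all are described), and the 2 genes of highest correlation with each tested member among those of at least 3 CPM. Xist, Ddx3y and E130003G02Rik were named after their values were seen.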

Additional observations from a re-analysis of the deposited data

How the results depend on the processing

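Counts of called subunit genes were unchanged under DESeq2, RLE scaling, no filter, the replicate block and without both KO replicate 3 libraries, and over the refits that each left out 1 library they were 2 (KO over WT, DMSO and JQ1), 4 (JQ1 over DMSO, WT and KO), 0 (difference of responses) and 4 to 5 (KO in JQ1 over WT in DMSO). Spike-in scaling gave 0 called members for KO over WT in JQ1 and 2 for JQ1 over DMSO in KO. It also ended the calls of Grin1 for KO over WT in DMSO (adjusted p = 0.246), JQ1 over DMSO in WT (0.409) and KO in JQ1 over WT in DMSO (0.827). For KO over WT in DMSO it called Grin2d (adjusted p = 0.0395). The cause was not tested. It turned the sign, for KO over WT in DMSO, of Grin1 (-0.37), Grin2a (-0.31), Grin2b (-0.36), Grin2c (-0.72) and Grin2d (-0.67). The same held in JQ1 for Grin2a (-0.096) and Grin2d (-0.11), for JQ1 over DMSO in WT for Grin1 (-0.28) and Grin2a (-0.51), and for KO in JQ1 over WT in DMSO for Grin1 (-0.073), Grin2a (-0.61) and Grin2b (-0.53). In the difference of responses it gave 0.58 (Grin1), 0.21 (Grin2a), 0.43 (Grin2b), 0.56 (Grin2d) and 0.54 (Grin3a). Among partners it gave, for KO over WT in DMSO, Dlg4 -0.54, Dlg3 -0.59, Kif17 -0.50, Csnk2b -0.55, Camk2b -0.55, Camk2a -0.43, Calm3 -0.51, Rasgrf2 -0.46, Ephb2 -0.49 and Mef2d -0.51. For JQ1 over DMSO in WT it gave Gipc1 -0.11, Ptpra -0.27, Prkca -0.11, Nsmf -0.22, Shmt2 -0.19, Efnb2 -0.36, Prnp -0.50, Brd2 -0.011, Rcor1 -0.37 and Fmr1 -0.37.

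Without both KO replicate 3 libraries, Grin2c for KO over WT in DMSO was -0.11, the Grin1 to Grin2b ratio -0.049, and the Grin3a to Grin2b ratio -0.96 between genotypes and -1.18 between treatments (adjusted p = 0.08 each, with fewer relabelings possible). Grin2b for JQ1 over DMSO in WT was 0.069 with limma-voom and 0.068 with the replicate block by genotype. The replicate block changed no other call or sign of a member.

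Leaving out 1 library at a time gave ranges that cross 0 for members that were not called: for KO over WT, Grin2b (-0.0044 to 0.81) and Grin2c (-0.087 to 0.27) in DMSO, and Grin2a (-0.10 to 0.22), Grin2b (-0.021 to 0.34) and Grin2d (-0.059 to 0.070) in JQ1. For JQ1 over DMSO they were Grin2a (-0.10 to 0.34) and Grin2b (-0.35 to 0.45) in WT and Grin2b (-0.40 to 0.11) in KO. For the difference of responses Grin2b ran from -0.62 to 0.20, and for KO in JQ1 over WT in DMSO Grin2a from -0.044 to 0.40 and Grin2b from -0.16 to 0.64. Ratios to Grin2b between genotypes ran from -0.086 to 0.30 (Grin1), -0.10 to 0.068 (Grin2a) and -0.97 to -0.62 (Grin3a), and between treatments from -0.97 to -0.59 (Grin2d) and -1.42 to -1.07 (Grin3a). The ratio of Grin2c was not computed because 1 library held 0 counts. Depth limits Grin2c and Grin3b.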
